A study of Mus musculus with 8 samples.

Results

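The genes that encode receptors for glutamate, GABA and glycine were examined in infarcts from aged mice after long-term treatment with 2-hydroxypropyl-β-cyclodextrin (HPβCD), a ring-shaped sugar that holds lipids such as cholesterol in its cavity. Members were chosen by gene symbol. All subunits of the AMPA, kainate, NMDA and delta glutamate receptors, the metabotropic glutamate receptors, the GABA-A (including the rho subunits) and GABA-B receptors and the glycine receptor were taken, which gave 52 of the 46078 genes in the count tables. The 8 libraries came from wild type C57BL/6J mice, 18 months old and, per the study's methods, male. Every animal had undergone DH stroke, a closure of the distal middle cerebral artery combined with hypoxia. From 1 week after stroke, 4 animals received sterile PBS (vehicle) and 4 received 4 g/kg HPβCD under the skin, 3 times per week for 6 weeks, and infarcts were taken at 7 weeks after stroke. How much of the brain around the infarct each piece held is not given in the sources used here.

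Glutamate excites neurons through ion channels of the AMPA, kainate and NMDA families and tunes them through slower metabotropic receptors, which are coupled to G proteins. GABA inhibits through the GABA-A chloride channel and the G-protein-coupled GABA-B receptor, and glycine acts through a related chloride channel. Most of these genes are used by neurons, but astrocytes and oligodendrocyte precursors use some of them too, including *Grm3*, *Grin2c*, *Gabrg1* and *Gabrb1*. An infarct core that has been cleared of dead tissue holds few neurons and is surrounded by a glial scar.

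Levels are given as CPM (read counts scaled to a common library total), corrected for the makeup of each library, and as CPM per kilobase of exon where different genes are compared. Each library held between 16.6 and 32.9 M counts in genes. Neuron markers were far from even between animals. Summed over the 12 markers in the list, they reached 1409 CPM and 7990 CPM in vehicle animals 1 and 3, but only 107 and 84.6 CPM in vehicle animals 2 and 4 and 51.3 to 165 CPM in HPβCD animals. Of the 10 neuron markers that could be tested, all 10 had a lower estimate after HPβCD and an unadjusted p under 0.05, none was called by edgeR (adjusted p under 0.05) and 8 were called by DESeq2, and *Nefm* was at 0 in a library. For this reason the main values below are also given without vehicle animals 1 and 3, an alternative added after the data had been seen. Bulk tissue cannot tell fewer cells of a type from less RNA per cell.

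The receptor genes followed the same animals. Together they took 0.204% and 0.433% of the counts in vehicle animals 1 and 3 (95% Wilson intervals, 0.202 to 0.207% and 0.430 to 0.437%). In vehicle animals 2 and 4 they took 0.0459% and 0.0492%, and in HPβCD animals 1 to 4 they took 0.0306%, 0.0320%, 0.0359% and 0.0446%. In these shares vehicle animals 2 and 4 were above all 4 HPβCD animals. Vehicle animal 2 was closest, and its interval of 0.0451 to 0.0466% overlapped that of 0.0436 to 0.0456% in HPβCD animal 4. These intervals cover counting error only. In summed CPM, corrected for library makeup, vehicle animals 2 and 4 were at 434 and 470 CPM and HPβCD animal 4 at 446 CPM. On that scale vehicle animal 2 was below HPβCD animal 4. *Glrb* alone made up 179 and 255 CPM of these sums, in that order, and without it vehicle animal 2 would be the higher.

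**Figure D1:**
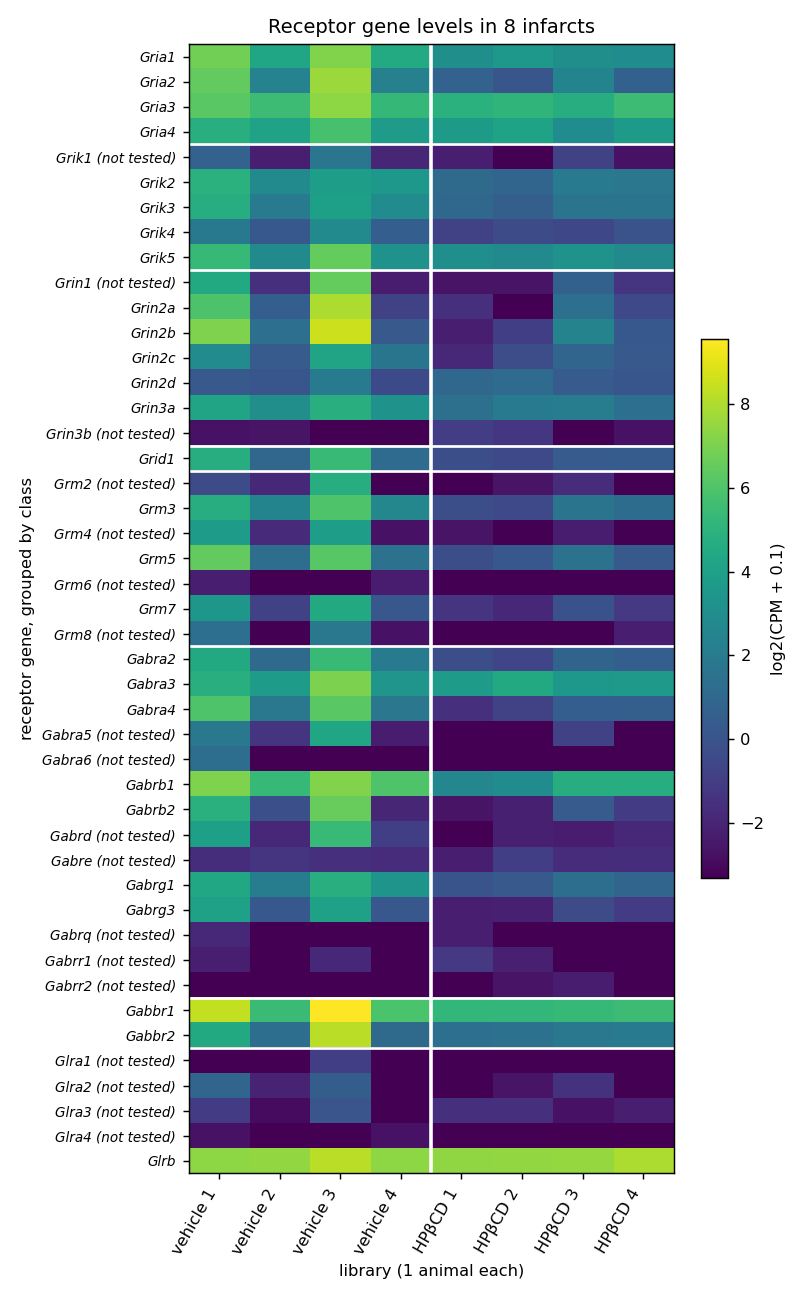
Levels of receptor genes with at least 1 count, as log2(CPM + 0.1), with a row per gene grouped by receptor class and a column per animal, 4 vehicle and 4 HPβCD. Vehicle animals 1 and 3 are brighter than the other 6 in most rows, as with *Grin2b* (134 and 377 CPM), whereas *Glrb* is bright in all 8 columns (164 to 295 CPM).

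Of the 52 receptor genes, 31 had enough counts in at least 4 animals to be tested and 21 did not. The counts over the 31 therefore describe the genes that passed this minimum, and some genes that were high only in vehicle animals 1 and 3, such as *Grin1*, are not among them. Without the minimum 50 genes could be fitted, 45 of them with a lower estimate. All 31 tested genes had a lower estimate in HPβCD infarcts than in vehicle infarcts, whereas 54.1% of all 14736 tested genes did. Their median log2 fold change was -3.37, against -0.05 over all genes. Only 3 receptor genes passed an adjusted p of 0.05 in edgeR's quasi-likelihood test, *Gabrg1*, *Grin3a* and *Grik2*, and all 3 fell. Among all genes, 1.95% were called in either direction and 0.774% were called lower. A further 25 receptor genes had an unadjusted p under 0.05 without passing, so that 28 of 31 were below it. Of all 14736 tested genes, 4094 were below it in the same fit. The same background applies to such counts for markers and partner genes in this report. In 14 of the 31 every HPβCD animal was below every vehicle animal, and this was so for 8.03% of all tested genes.

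The number of calls depended on the test and on the animals. DESeq2 called 30 of the 40 receptor genes to which it gave an adjusted p, all lower, beside 17.0% of all genes. On data simulated with 4-fold changes for this comparison, 26% of the calls of DESeq2 and 4.22% of those of edgeR were false. The simulation changed 200 of 14736 genes and took the spread of each gene from edgeR. It held no split of the vehicle animals, so these shares do not measure the error of the calls on the real data. limma-voom with quality weights for the libraries called 7, among them *Gabrb1*, *Gabrg1*, *Grik2*, *Grik3*, *Grin3a* and *Grm3*, beside 21.9% of all genes. Without vehicle animals 1 and 3, edgeR called 3 of 31 (*Gabrg1*, *Gria1* and *Grin3a*), beside 1.34% of all genes. In that comparison 27 of the 31 had a lower estimate, beside 48.8% of all genes, and the median log2 fold change of the receptor genes was -0.85, against 0.01 over all genes.

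**Figure D2:**
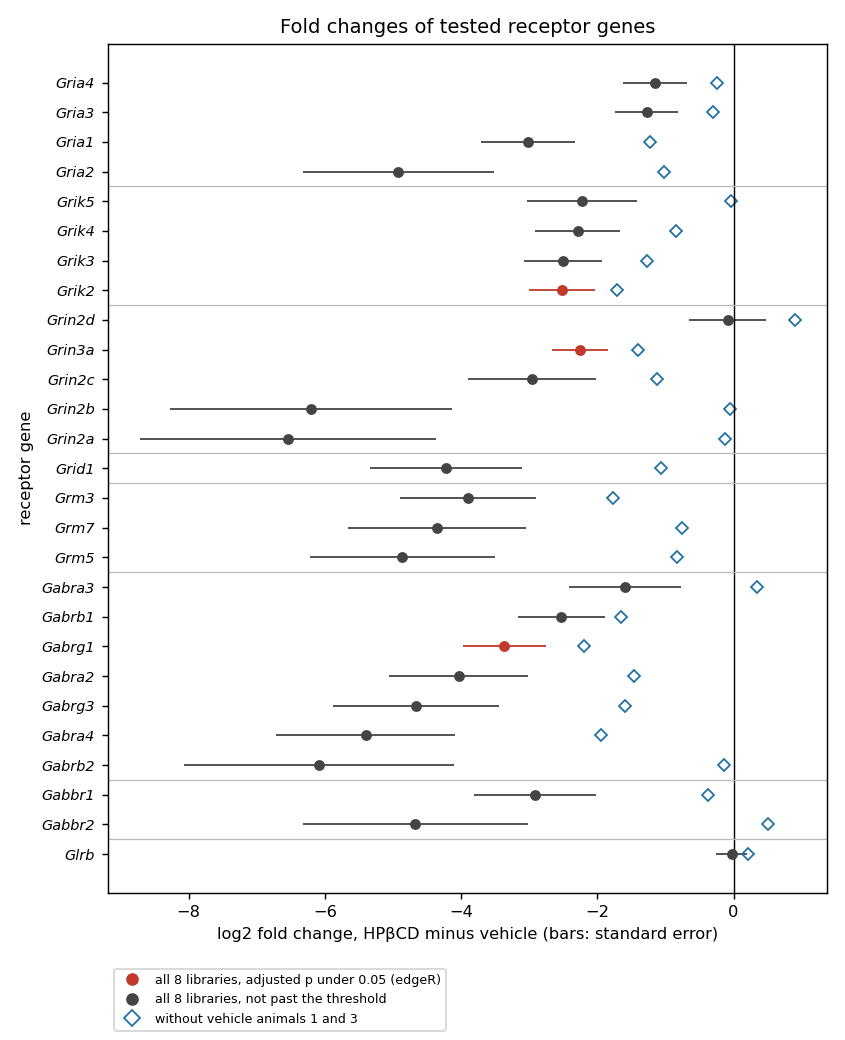
Log2 fold change of 27 tested receptor genes, HPβCD minus vehicle, by class, with the standard error from edgeR (filled points, n = 4 per group), and the estimate without vehicle animals 1 and 3 (open diamonds). All filled points lie below 0, from -6.54 for *Grin2a* to -0.03 for *Glrb*, whereas the open diamonds lie closer to 0 in most genes and above it for *Gabbr2*, *Gabra3*, *Glrb* and *Grin2d*.

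The receptor gene with the largest change among the called ones was *Gabrg1* (ENSMUSG00000001260, chromosome 5, 70751047 to 70842617, minus strand, GRCm38), which encodes a γ subunit of the GABA-A receptor that is known from glia as well as from neurons. Its levels were 21.4, 4.36, 28.1 and 10.1 CPM in vehicle animals 1 to 4 and 0.919, 1.1, 2.41 and 1.72 CPM in HPβCD animals 1 to 4. The lowest vehicle animal was above the highest HPβCD animal. The group means were 16 ± 10.7 against 1.54 ± 0.677 CPM (SD, n = 4 each), and it fell by 3.37 on the log2 scale (SE 0.61, adjusted p = 0.0483 by edgeR). Without vehicle animals 1 and 3 the estimate was -2.20 (edgeR adjusted p = 0.0499).

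*Grin3a* (ENSMUSG00000039579, chromosome 4, 49661611 to 49845744, minus strand) encodes an NMDA receptor subunit that lowers the calcium flux of the channel. Its levels were 18.6, 8.01, 26.8 and 9.73 CPM in vehicle animals 1 to 4 and 2.64, 3.86, 4.24 and 2.5 CPM in HPβCD animals 1 to 4. All vehicle animals were above all HPβCD animals, vehicle animals 2 and 4 included. It fell from 15.8 ± 8.69 to 3.31 ± 0.87 CPM (SD, n = 4 each), a log2 change of -2.25 (SE 0.41, adjusted p = 0.0483 by edgeR). The estimate without vehicle animals 1 and 3 was -1.40 (edgeR adjusted p = 0.0447).

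*Grik2* (ENSMUSG00000056073, chromosome 10, 49094833 to 49788766, minus strand) encodes a principal kainate receptor subunit. Its levels were 30.4, 6.92, 14.6 and 11.5 CPM in vehicle animals 1 to 4 and 2.07, 1.72, 3.92 and 3.33 CPM in HPβCD animals 1 to 4. Here vehicle animal 1, not vehicle animal 3, was the highest, and the groups did not overlap. It fell from 15.8 ± 10.2 to 2.76 ± 1.04 CPM (SD, n = 4 each), a log2 change of -2.52 (SE 0.48, adjusted p = 0.0483 by edgeR). Without vehicle animals 1 and 3 the estimate was -1.71 and did not pass (edgeR adjusted p = 0.0521). All 3 calls lay close to the threshold. None of the 3 was called when vehicle animal 1, vehicle animal 4 or any single HPβCD animal was left out. Most of these fits called 0 genes of any kind. The exceptions were 4 of 15048 genes without HPβCD animal 1 and 353 of 15043 without HPβCD animal 4.

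Promoter windows of 2 called genes differed in base composition. The 250 bases before the start of *Gabrg1* and *Grik2*, from the RefSeq windows of GRCm38.p6, are shown together with those of *Glrb*, the receptor gene with the highest level and almost no difference between the groups. CG pairs, the sites of DNA methylation, are in capitals. The windows are chr5:70842618-70842867 for *Gabrg1*, chr10:49788755-49789004 for *Grik2* and chr3:80913661-80913910 for *Glrb*, all on the minus strand and written 5′ to 3′.
Gabrg1: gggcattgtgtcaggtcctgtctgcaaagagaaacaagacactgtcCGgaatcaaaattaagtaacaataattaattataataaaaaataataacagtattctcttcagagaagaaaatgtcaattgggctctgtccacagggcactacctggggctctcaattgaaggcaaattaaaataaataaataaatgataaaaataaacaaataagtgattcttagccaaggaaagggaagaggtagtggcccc
Grik2: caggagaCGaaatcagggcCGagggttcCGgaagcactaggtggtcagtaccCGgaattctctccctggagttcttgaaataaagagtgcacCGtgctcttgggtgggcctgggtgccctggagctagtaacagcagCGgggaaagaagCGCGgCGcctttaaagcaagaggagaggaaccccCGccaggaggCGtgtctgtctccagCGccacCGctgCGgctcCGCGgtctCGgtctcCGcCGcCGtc
Glrb: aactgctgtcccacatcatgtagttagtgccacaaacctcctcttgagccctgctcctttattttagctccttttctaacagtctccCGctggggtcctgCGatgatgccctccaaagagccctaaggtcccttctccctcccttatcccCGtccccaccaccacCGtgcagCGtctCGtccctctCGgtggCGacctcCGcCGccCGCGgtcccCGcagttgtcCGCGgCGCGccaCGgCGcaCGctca

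The *Gabrg1* window held 1 CG pair and 35.6% G and C, and 7.87% of the 32851 windows of all genes held fewer CG pairs. The windows of *Grik2* and *Glrb* held 20 CG pairs each, with 62.8% and 62.4% G and C. In this respect *Grik2*, which fell, was like *Glrb*, for which no difference was found, and unlike *Gabrg1*, which also fell. The median was 8 CG pairs over 43 windows of 36 receptor genes and 6 over all windows. The left side of the RE1 site, TTCAGCACC, to which the neuron-gene repressor REST binds, was searched on both strands. It occurred in 0.301% of all windows and, among receptor genes, only in the window of *Grm2*. The SOX core ACAATG, searched likewise, occurred in 10.7% of all windows and in those of *Gabrg1* and *Grin1*. A match of letters is a description and shows no binding.

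**Figure D3:**
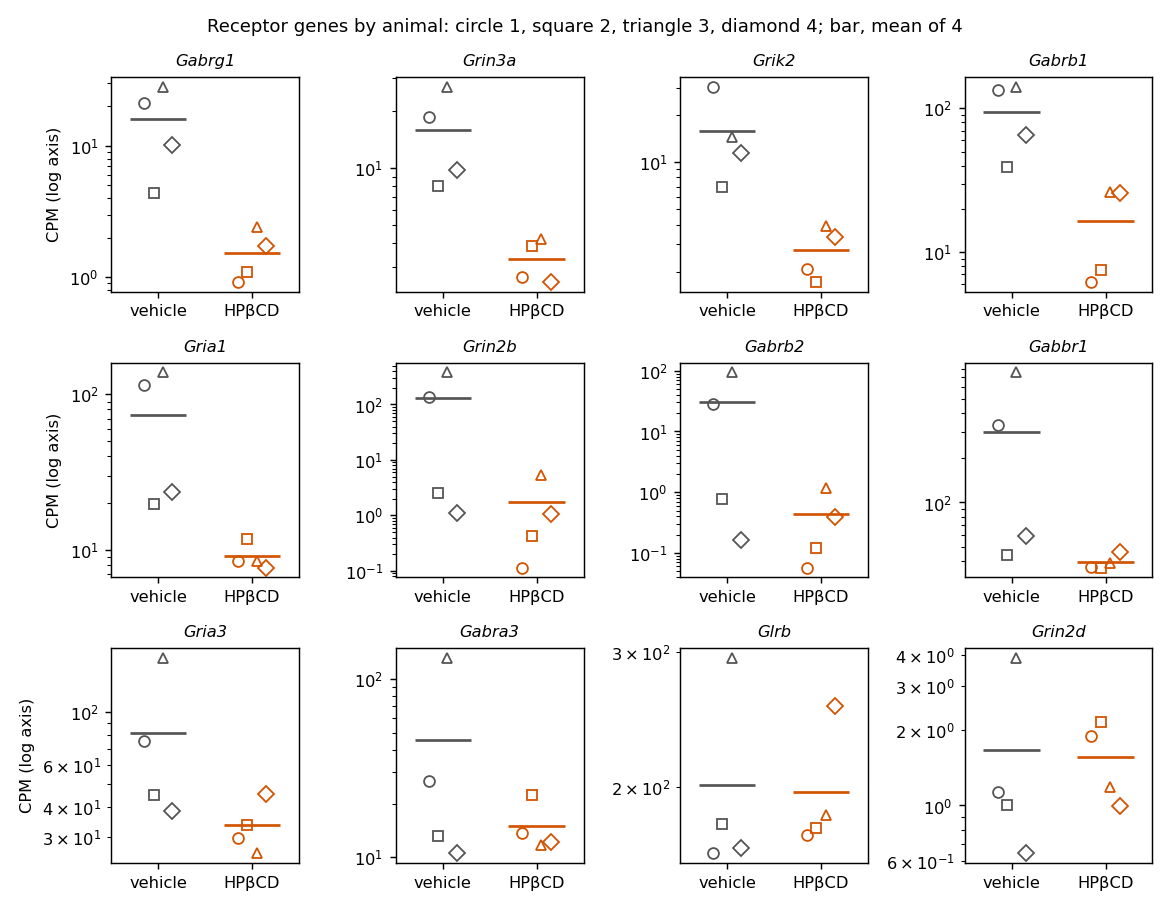
Levels of 12 receptor genes in each animal (CPM, log axis), vehicle and HPβCD, with a symbol per animal number and a bar at the mean of 4. *Gabrg1*, *Grin3a* and *Grik2* are higher in all 4 vehicle animals than in any HPβCD animal, *Grin2b* and *Gabrb2* are far higher in vehicle animals 1 and 3 only, and the groups of *Glrb* and *Grin2d* overlap.

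AMPA receptors carry most fast excitation, and *Gria2* encodes the subunit that keeps calcium out of the channel. All 4 genes were tested and had lower estimates, with log2 fold changes from -4.92 to -1.16. All 4 had an unadjusted p under 0.05 and none was called by edgeR, whereas DESeq2 called 3. *Gria1* had the highest mean level of the class per length (6.88 CPM per kb). Its levels were 114, 19.6, 138 and 23.6 CPM in vehicle animals 1 to 4 and 8.5, 11.8, 8.53 and 7.72 CPM in HPβCD animals 1 to 4. The groups did not overlap. The log2 fold change was -3.02 (SE 0.69, adjusted p = 0.0627 by edgeR), and without vehicle animals 1 and 3 it was -1.23 and passed (edgeR adjusted p = 0.034).

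*Gria2* split the vehicle animals more sharply. Its levels were 88.5, 5.11, 194 and 4.73 CPM in vehicle animals 1 to 4 and 1.55, 0.98, 5.53 and 1.5 CPM in HPβCD animals 1 to 4. Vehicle animals 2 and 4 were within the range of the HPβCD animals, and the log2 fold change of -4.92 (SE 1.40, adjusted p = 0.0853 by edgeR) moved to -1.02 without the other two. *Gria3* was at 75.8, 45.1, 167 and 38.6 CPM in vehicle animals 1 to 4 and 29.9, 33.8, 25.8 and 45.3 CPM in HPβCD animals 1 to 4. Outside vehicle animals 1 and 3 it stayed between 25.8 and 45.3 CPM, with a log2 fold change of -0.30 against -1.28 over all animals. *Gria4*, known from oligodendrocyte precursors and Bergmann glia, was at 26.6, 17.1, 56.8 and 13.4 CPM in vehicle animals 1 to 4 and 12.9, 17.8, 7.67 and 12.8 CPM in HPβCD animals 1 to 4 (log2 fold change -1.16, edgeR adjusted p = 0.153, and -0.25 without vehicle animals 1 and 3).

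The makeup of the class differed accordingly. *Gria2* held 15.6% and 20.3% of the summed AMPA level per kb in vehicle animals 1 and 3, but 0.764 to 6.35% in the other 6 animals. *Gria3* and *Gria4* together were the larger part of the class in each of those 6. The log2 ratio of *Gria2* to *Gria1* was -1.02 ± 1.31 in vehicle and -2.19 ± 1.17 in HPβCD animals (SD, n = 4 each), a difference that did not pass an exact two-sided permutation test (p = 0.2, adjusted over 5 subunit pairs 0.607).

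**Figure D4:**
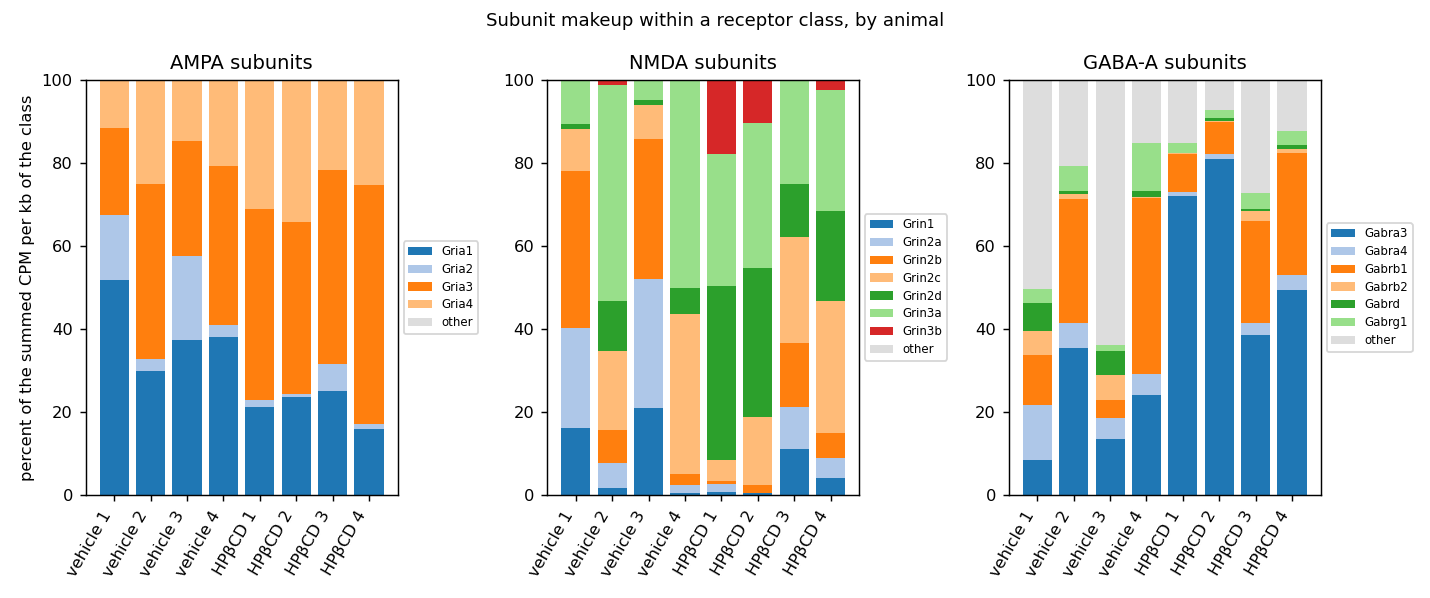
Percent of the summed CPM per kb of exon within the AMPA, NMDA and GABA-A classes that each subunit holds, with a stacked bar per animal, and remaining subunits pooled as other, among them those under 5% in all 8 animals. *Gria2*, *Grin2a* and *Grin2b* take larger shares in vehicle animals 1 and 3, whereas *Gabra3* holds 38.6 to 81.0% of the GABA-A level in HPβCD animals.

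Kainate receptors modulate release and excitability. Of 5 genes, 4 were tested, and the log2 fold changes of these 4 lay close together, from -2.52 to -2.23. *Grik5*, which encodes a high-affinity partner subunit, had the highest level of the class per length (4.36 CPM per kb). Its levels were 39.2, 7.06, 92.8 and 9.36 CPM in vehicle animals 1 to 4 and 8.33, 6.74, 9.55 and 7.05 CPM in HPβCD animals 1 to 4. Only vehicle animals 1 and 3 stood above the rest, and the log2 fold change went from -2.23 (SE 0.80, adjusted p = 0.127 by edgeR) to -0.03 without them.

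*Grik3* behaved like *Grik2*. Its levels were 25.6, 4.05, 16.2 and 7.37 CPM in vehicle animals 1 to 4 and 1.9, 1.41, 3.01 and 3 CPM in HPβCD animals 1 to 4. The groups did not overlap, and the log2 fold change was -2.50 (SE 0.57, adjusted p = 0.0602 by edgeR), or -1.27 without vehicle animals 1 and 3. *Grik4* had a log2 fold change of -2.29 at 0.46 to 6.96 CPM. *Grik1* was not tested, with at most 53 counts, in vehicle animal 3.

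NMDA receptors pair the obligatory subunit of *Grin1* with subunits of the *Grin2* or *Grin3* genes. *Grin1* itself was not tested, since it passed the count minimum in too few animals. It was at 22.7, 0.23, 92.1 and 0.108 CPM in vehicle animals 1 to 4 and 0.0575, 0.0613, 1.5 and 0.278 CPM in HPβCD animals 1 to 4. Only vehicle animals 1 and 3 held more than 2 CPM of it. Opposite-strand transcripts cover 13.5% of its exon bases, and since the strand option of the counting is not given in the sources used here, their reads and those of *Grin1* cannot be told apart. *Grin2b* had the highest level of the class per length among the tested genes (2.63 CPM per kb), and was at 134, 2.5, 377 and 1.13 CPM in vehicle animals 1 to 4 and 0.115, 0.429, 5.31 and 1.05 CPM in HPβCD animals 1 to 4. Its log2 fold change of -6.20 (SE 2.07, adjusted p = 0.11 by edgeR) was reduced to -0.06 without vehicle animals 1 and 3.

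*Grin2a*, the other major forebrain subunit, was at 61.7, 1.32, 252 and 0.484 CPM in vehicle animals 1 to 4 and 0.23, 0, 2.47 and 0.611 CPM in HPβCD animals 1 to 4 and went from -6.54 to -0.13 in the same way. The log2 ratio of *Grin2b* to *Grin2a* was 0.91 ± 0.24 in vehicle and 0.89 ± 1.24 in HPβCD animals (SD, n = 4 each, exact two-sided permutation test, p = 0.971), with at least 10 counts of both genes in 5 of the 8 animals. *Grin2c*, the subunit known from astrocytes, was at 7.41, 1.21, 18.3 and 3.07 CPM in vehicle animals 1 to 4 and 0.172, 0.735, 1.77 and 1.11 CPM in HPβCD animals 1 to 4 (log2 fold change -2.96, SE 0.94, adjusted p = 0.0976 by edgeR). Vehicle animal 2 lay inside the HPβCD range.

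*Grin2d* was the NMDA subunit with the smallest difference. It was at 1.13, 1, 3.87 and 0.645 CPM in vehicle animals 1 to 4 and 1.9, 2.14, 1.18 and 0.999 CPM in HPβCD animals 1 to 4, with a log2 fold change of -0.08 (SE 0.56, adjusted p = 0.943 by edgeR) and of 0.90 without vehicle animals 1 and 3. Opposite-strand transcripts cover 9.66% of its exon bases. *Grin3a*, one of the called genes, held 51.9% and 50.1% of the NMDA level per kb in vehicle animals 2 and 4, and 25 to 35% in HPβCD animals, but only 10.5% and 4.84% in vehicle animals 1 and 3. *Grin3b* had at most 7 counts.

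Delta receptors hold synapses together through cerebellins. *Grid1*, with a mean level per length of 1.57 CPM per kb, was at 26.2, 1.81, 41 and 2.21 CPM in vehicle animals 1 to 4 and 0.747, 0.613, 1.18 and 1.22 CPM in HPβCD animals 1 to 4. The groups did not overlap, at a log2 fold change of -4.23 (SE 1.11, adjusted p = 0.0774 by edgeR), or -1.06 without vehicle animals 1 and 3.

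Of the 8 metabotropic glutamate receptor genes, *Grm3*, *Grm5* and *Grm7* were tested. *Grm3*, an inhibitory receptor used by astrocytes, had the highest level of the class per length (4.41 CPM per kb). Its levels were 25.7, 5.57, 63.4 and 6.13 CPM in vehicle animals 1 to 4 and 0.747, 0.613, 3.06 and 2.28 CPM in HPβCD animals 1 to 4. The groups did not overlap. The log2 fold change was -3.90 (SE 0.99, adjusted p = 0.0724 by edgeR), and -1.77 without vehicle animals 1 and 3. In vehicle animals 2 and 4 it held 81.9% and 80% of the level of the class, against 36.3% and 49.8% in vehicle animals 1 and 3.

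*Grm5*, an excitatory receptor of neurons and of young astrocytes, was at 86.8, 2.35, 75.4 and 2.8 CPM in vehicle animals 1 to 4 and 0.747, 1.04, 2.79 and 1.11 CPM in HPβCD animals 1 to 4. It was slightly higher in vehicle animal 1 than in vehicle animal 3, and its log2 fold change was -4.86 (SE 1.36, adjusted p = 0.0829 by edgeR), or -0.83 without those animals. *Grm7* was at 0.184 to 22.5 CPM, with a log2 fold change of -4.36. *Grm2* and *Grm4* were not tested. In vehicle animals 1 and 3, *Grm4* reached 13.2 and 14.6 CPM, and it stayed at or under 0.201 CPM in the other 6. *Grm2* was at 26 CPM in vehicle animal 3 but at 0.679 CPM in vehicle animal 1, and opposite-strand transcripts cover 9.60% of its exon bases. *Grm6* had at most 2 counts and *Grm8* at most 58. The log2 ratio of *Grm3* to *Grm2* gave no difference between the groups past the threshold (exact two-sided permutation test, p = 0.486), but at least 10 counts of both genes were present in only 2 animals.

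GABA-A receptors are built from α, β and γ subunits. Of 19 genes, 10 were tested, all with lower estimates and with a median log2 fold change of -4.85. *Gabrb2*, a β subunit of adult forebrain receptors, was at 28.5, 0.775, 93.6 and 0.161 CPM in vehicle animals 1 to 4 and 0.0575, 0.123, 1.18 and 0.389 CPM in HPβCD animals 1 to 4. Its log2 fold change was -6.09 (SE 1.98, adjusted p = 0.105 by edgeR), and -0.14 without vehicle animals 1 and 3. *Gabrd*, the subunit of receptors outside synapses, was not tested. It reached 15.5 and 41.9 CPM in the same animals and at most 0.43 CPM elsewhere.

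In other GABA-A genes the groups did not overlap. *Gabrb1*, a β subunit that glia also use, was at 134, 38.9, 141 and 65 CPM in vehicle animals 1 to 4 and 6.21, 7.48, 26.1 and 25.6 CPM in HPβCD animals 1 to 4. All 4 vehicle animals were above all HPβCD animals. The log2 fold change was -2.53 (SE 0.64, adjusted p = 0.0715 by edgeR), and -1.65 without vehicle animals 1 and 3 (edgeR adjusted p = 0.238). *Gabra2*, *Gabra4* and *Gabrg3* also did not overlap between the groups, with log2 fold changes of -4.04, -5.40 and -4.66, and of -1.47, -1.95 and -1.60 without vehicle animals 1 and 3. None of these 4 genes was called in either comparison.

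*Gabra3* stood apart within the class. It was at 26.6, 13.1, 131 and 10.5 CPM in vehicle animals 1 to 4 and 13.6, 22.4, 11.7 and 12.2 CPM in HPβCD animals 1 to 4, and outside vehicle animals 1 and 3 it was the most abundant α subunit per length in all 6 animals. Its log2 fold change was -1.59 (SE 0.82, adjusted p = 0.251 by edgeR) over all animals and 0.35 without vehicle animals 1 and 3. *Gabra5* reached 18.9 CPM in vehicle animal 3. *Gabra6* was counted in vehicle animal 1 alone, at 2.38 CPM. *Gabre*, *Gabrq*, *Gabrr1* and *Gabrr2* had at most 10 counts in any animal. *Gabrp* and *Gabrr3* had none, which allows up to 0.0911 to 0.181 CPM per library at 3 counts.

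The GABA-B receptor needs the products of *Gabbr1* and *Gabbr2* at the cell surface. *Gabbr1* had the second highest level per length of all receptor genes (21.7 CPM per kb) and was at 332, 44.1, 754 and 59.1 CPM in vehicle animals 1 to 4 and 36.5, 36.3, 38.9 and 46 CPM in HPβCD animals 1 to 4. Apart from vehicle animals 1 and 3 it stayed between 36.3 and 59.1 CPM, and its log2 fold change went from -2.92 (SE 0.90, adjusted p = 0.0949 by edgeR) to -0.37 without them. *Gabbr2* was at 22.5, 2.44, 300.5 and 2.1 CPM in vehicle animals 1 to 4 and 2.47, 2.76, 3.49 and 4.05 CPM in HPβCD animals 1 to 4. Its level was 13.3 times as high in vehicle animal 3 as in vehicle animal 1, the largest such ratio among tested receptor genes. Its log2 fold change turned from -4.68 to 0.50 without those animals (edgeR adjusted p = 0.121 and 0.36). Per length, *Gabbr1* made up 90.6 to 96.0% of the pair in 7 animals and 68.4% in vehicle animal 3.

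The glycine receptor differed from the other classes in having a single tested gene. *Glrb* (ENSMUSG00000028020, chromosome 3, 80843599 to 80913660, minus strand), the β subunit that anchors the receptor to gephyrin, had the highest level of all receptor genes per length (42.8 CPM per kb). It was at 164, 179, 295 and 167 CPM in vehicle animals 1 to 4 and 174, 177, 184 and 255 CPM in HPβCD animals 1 to 4. The groups overlapped, at means of 201 ± 62.6 against 197 ± 38.6 CPM (SD, n = 4 each) and a log2 fold change of -0.03 (SE 0.23, adjusted p = 0.954 by edgeR), or 0.21 without vehicle animals 1 and 3. The α subunits that bind glycine were nearly missing from the counts. *Glra1*, *Glra2*, *Glra3* and *Glra4* had at most 7, 31, 16 and 1 counts in any animal, and *Glrb* made up at least 98.3% of the class per length in every animal.

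To separate glia-linked from neuron-linked receptors, the log2 CPM of each tested gene over the 8 animals was compared by Pearson's r with the scores of cell type marker lists, the mean of centered log2 CPM over a list. Only markers with enough counts to be tested entered a score. These were 10 of 12 neuron, 6 of 8 excitatory neuron and 4 of 9 inhibitory neuron markers. In the inhibitory list 6 of the 9 markers were at 0 in a library. *Lhx6*, which entered that score, had a higher estimate (log2 fold change 0.21). The r is a measure of likeness with no test. The libraries share the sequencing design and dissection, vehicle animals 1 and 3 lie far from the rest, and the neuron and astrocyte scores were themselves alike (r = 0.81), as were the astrocyte and precursor scores (r = 0.99). With each of 12 lists kept apart and a margin of 0.02 in r, 6 genes were nearest to astrocytes, 2 to inhibitory neurons and 23 were undecided. When the 3 neuron lists were taken as a kind and the 3 glial lists as another, which was done after these values were seen, 7 genes were glia-linked, 22 were neuron-linked and 2 were undecided.

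The 7 glia-linked genes included *Gabrb1*, *Gabrg1*, *Grik2*, *Grik3*, *Grin2c* and *Grin3a*, and with them all 3 called genes. *Gabrb1* matched the astrocyte score best (r = 0.99, against 0.85 for the best neuron list), and *Gabrg1* was close to it as well (0.96 and 0.88). *Grin3a* was the weakest (0.89 and 0.87). What the glia-linked genes shared was a higher level in vehicle animals 2 and 4 than in HPβCD animals, by 1.26 to 2.13 on the log2 scale, and a difference between vehicle animals 3 and 1 from -1.05 to 1.29. Without vehicle animals 1 and 3 their log2 fold changes were -2.20 to -1.12. These are the same values that placed the genes and are given as a description. They were not particular to glia-linked genes. The difference of vehicle animals 2 and 4 from HPβCD animals was 1.62, 1.46 and 1.33 in the neuron-linked *Gabrg3*, *Gabra2* and *Gria2*. In the undecided *Gabra4* and *Grm3* it was 2.12 and 2.03.

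The neuron-linked genes were led by *Grin2b* (r = 0.99 with the inhibitory neuron list, against 0.86 for the best glial list), *Gabrb2* and *Grin2a*. Their median difference between vehicle animals 3 and 1 was 1.16. Their median difference between vehicle animals 2 and 4 and HPβCD animals was 0.84 (range -0.80 to 1.62). Without vehicle animals 1 and 3 their median log2 fold change was -0.36 (range -1.60 to 0.90). *Glrb* and *Grin2d* were counted here with a weak match (best r 0.52 and 0.48). The undecided genes were *Grm3* and *Gabra4*.

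**Figure D5:**
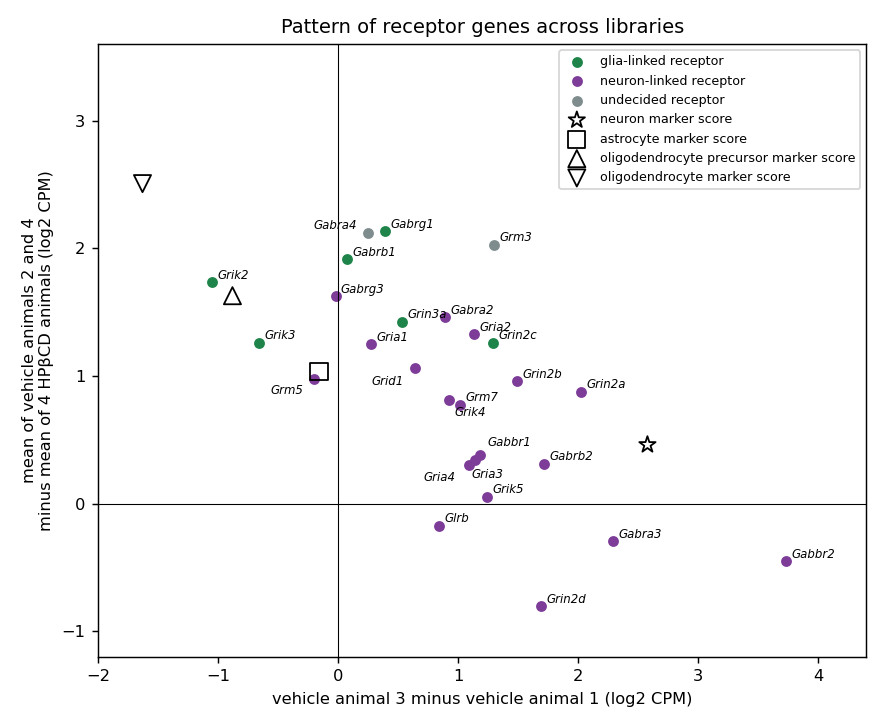
Tested receptor genes, each by its difference between vehicle animals 3 and 1 (x axis, log2 CPM) and between the mean of vehicle animals 2 and 4 and the mean of the HPβCD animals (y axis, log2 CPM), colored by the marker lists it matched, with marker scores as open symbols. Glia-linked genes lie from 1.26 to 2.13 on the y axis, close to the astrocyte and precursor scores (1.03 and 1.63). *Gabrg3*, *Gabra2*, *Gria2*, *Gabra4* and *Grm3*, which were not glia-linked, also lie in that range. *Gabbr2* and *Gabra3* lie below 0 at the right.

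The split was not firm for every gene. With Spearman's rho in place of r, the 7 stayed glia-linked but 18 genes were glia-linked in all, among them *Gabbr1*, *Gria1*, *Gria3*, *Gria4* and *Grm5*. Without vehicle animal 4, 3 of the 7 stayed and *Grin2c* and *Grin3a* became neuron-linked. Without HPβCD animal 1 or HPβCD animal 3, 5 of the 7 stayed. Without vehicle animal 3, all 7 stayed and 10 genes were glia-linked, among them *Gabra2* and *Grik4*.

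The 7 receptors on a list of those known from glia were not all placed with glia. *Gabrg1*, *Gabrb1* and *Grin2c* were glia-linked, *Grm3* was undecided, and *Grm5*, *Gabbr1* and *Gria4* were neuron-linked. All 7 had lower estimates and only *Gabrg1* was called.

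Glial markers mostly had lower estimates too, but few were called by edgeR. Of 12 astrocyte markers 11 had lower estimates and 9 had an unadjusted p under 0.05. Of these markers 1, *Fgfr3*, was called by edgeR but 7 by DESeq2. Their summed levels were 3077 to 10631 CPM in vehicle and 1220 to 3137 CPM in HPβCD animals, with no marker at 0. Of 8 oligodendrocyte precursor markers 8 had lower estimates, 7 with an unadjusted p under 0.05, and none was called by edgeR but 6 by DESeq2, with summed levels of 119 to 332 CPM against 28 to 92.5 CPM, and *Neu4* at 0 in a library. Of 10 oligodendrocyte markers 9 had lower estimates, none with an unadjusted p under 0.05 and none called by edgeR but 1 by DESeq2, with 1692 to 5366 CPM against 380 to 2293 CPM. HPβCD animals 1 and 2 were the lowest in all 3 lists.

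Markers of cells that are not of the neural lineage also differed between the groups. All 8 B lymphocyte markers had lower estimates and 4 fell (*Cd79a*, *Cd79b*, *Blk* and *Fcer2a*), with summed levels of 150 to 556 CPM in vehicle and 48.3 to 136 CPM in HPβCD animals. All 7 fibroblast markers had higher estimates and the collagen genes *Col1a1* and *Col1a2* rose, with 2649 to 6617 CPM against 9364 to 10392 CPM. Of 8 foamy macrophage markers 6 had higher estimates and *Gpnmb* rose, with 7539 to 13638 CPM against 16916 to 28404 CPM, and all 8 mural cell markers had higher estimates and *Pdgfrb* rose, with 424 to 632 CPM against 634 to 976 CPM. Of 8 microglia markers 6 had lower estimates and *Siglech* fell, with 557 to 1156 CPM against 709 to 1185 CPM, and of 8 endothelial markers 7 had higher estimates and none was called by edgeR, 4 at an unadjusted p under 0.05 and 3 called by DESeq2, with 686 to 825 CPM against 869 to 1091 CPM. No marker of these 6 lists was at 0 in any library. The part of the glial and other cells in the receptor differences was not tested.

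Genes that work beside the receptors were taken from 4 lists. Of the auxiliary subunits of AMPA and kainate receptors, 12 of 18 were tested, all 12 had lower estimates (median log2 fold change -2.62), and 2 fell. *Neto2*, a partner of kainate receptors, was at 109.6, 27.7, 59.8 and 38 CPM in vehicle and 8.73, 9.44, 13.5 and 16.7 CPM in HPβCD animals 1 to 4, a log2 fold change of -2.28 (SE 0.44, adjusted p = 0.0483 by edgeR). *Cacng5*, an AMPA receptor partner, was at 8.03, 3.42, 3.63 and 3.71 CPM against 0.46, 0.429, 1.72 and 0.611 CPM, a log2 fold change of -2.53 (SE 0.52, adjusted p = 0.0499 by edgeR). The log2 fold change of *Neto2* without vehicle animals 1 and 3 was -1.42 (adjusted p = 0.044 by edgeR), and that of *Cacng5*, no longer called, was -2.11 (adjusted p = 0.0827 by edgeR). In both genes all vehicle animals were above all HPβCD animals and vehicle animal 1 was the highest, as with *Grik2*. The most abundant of the list per length, *Olfm1* and *Frrs1l*, were not called, at log2 fold changes of -2.72 and -4.25.

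Of the proteins at inhibitory synapses, 16 of 18 were tested, 12 had lower estimates (median -0.82) and 1 fell. *Plcl1*, which helps GABA-A receptors reach the membrane, was at 37.4, 27.9, 29.4 and 24.6 CPM in vehicle and 10.5, 15.7, 14.1 and 17.9 CPM in HPβCD animals, a log2 fold change of -1.04 (SE 0.20, adjusted p = 0.0483 by edgeR). It was no longer called without vehicle animals 1 and 3, at a log2 fold change of -0.84 (adjusted p = 0.0835 by edgeR). *Gabarap*, an autophagy protein that binds the γ subunit, was at 395, 401, 299.8 and 559 CPM against 873, 956, 786 and 654 CPM, with all HPβCD animals higher, and just missed the threshold (log2 fold change 0.98, SE 0.22, adjusted p = 0.0568 by edgeR). *Kctd12*, a GABA-B partner, had a log2 fold change of -0.08.

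Excitatory scaffolds had 19 of 23 genes tested, 18 with lower estimates (median -2.35) and 13 with an unadjusted p under 0.05. None was called by edgeR, whereas DESeq2 called 11, of which 1 was higher. This was *Homer3* (log2 fold change 0.65, edgeR adjusted p = 0.0677), with every HPβCD animal above every vehicle animal. *Dlg1* and *Dlg3*, the most abundant per length, had log2 fold changes of -0.32 and -1.01. Transporters and transmitter enzymes had 20 of 25 tested, 18 with lower estimates (median -1.24) and 14 with an unadjusted p under 0.05, and none was called by edgeR, whereas DESeq2 called 11. *Glul*, the glutamine synthetase of astrocytes, was at 832, 923, 1707 and 887 CPM in vehicle and 765, 809, 1170.2 and 1101 CPM in HPβCD animals, so the groups overlapped (log2 fold change -0.18, edgeR adjusted p = 0.723). *Slc38a2*, a glutamine carrier, had a log2 fold change of 0.66 (edgeR adjusted p = 0.123).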

How the data were processed

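Bulk RNA sequencing of infarcts from 8 mice was analyzed, 4 given vehicle and 4 given HPβCD, with groups and animal numbers taken from the sample labels. Per the submitters' processing notes and the study's methods, polyadenylated RNA was made into stranded libraries and sequenced as paired reads, which were demultiplexed with bcl2fastq 2.19, trimmed with Trimmomatic 0.32, aligned to GRCm38 with STAR 2.5.2b and counted per gene with HTSeq. The strand option of the counting and the annotation release are not given in the sources used here. The deposited values are raw counts per gene, without normalization, in one table per animal. The lines for reads assigned to no gene, 26.6 to 36.6% of each table, were left out. No library pair agreed within sampling noise (lowest chi-square per degree of freedom 20.3).

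Receptor genes were matched by symbol, and coordinates and exon lengths are from GENCODE M21 on GRCm38. The groups were compared with edgeR 4.0.16 under R 4.3.3 (robust quasi-likelihood F test, TMM scaling, filterByExpr, no covariate, Benjamini-Hochberg adjustment over 14736 genes, threshold 0.05). CPM used the TMM factors, and log2 CPM a prior count of 2. DESeq2 1.42.0 and limma 3.58.1 (voom with quality weights) served as alternatives, as did other scalings and filters, a replicate block and leaving out each animal. Ratios of subunits per animal were compared by an exact permutation test, two-sided, with all 70 ways to divide 8 animals into groups of 4.

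The members and gene lists were chosen with earlier results of these data known. Named genes are the called receptors, the receptor with the highest mean CPM per kb in each class, the receptors known from glia, and, among partner genes, the called ones and the most abundant pair of each list; remaining receptors are given by level or fold change. Some receptor genes enter the counts but are not reported here, nor are subunit ratios that need them. The fits were tested on simulated data drawn with the means and totals of these libraries. For this comparison, with 200 of 14736 genes changed 4-fold, edgeR recovered 79.5%, DESeq2 87.0% and limma-voom 80.0% of them. No batch is named in the labels.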

Additional observations from a re-analysis of the deposited data

Results flagged for a closer look

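*Glrb*, encoding the glycine receptor β subunit, was flagged in both groups because a single animal lay far from the rest. Its log2 CPM was 8.20 in vehicle animal 3, against 7.36 to 7.49 in the other vehicle animals, and 8.00 in HPβCD animal 4, against 7.44 to 7.53 in the other HPβCD animals. These were the flags among 72 groups of 4 animals that were searched, where chance alone flags about 1 in 20, or 3.6.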

How the results depend on the processing

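Over 17 other settings of the test, 524 comparisons of single receptor genes with their value in the report were made. In 449 the direction and the side of the threshold were the same, in 34 the gene passed only under the other setting, in 25 it no longer passed, and in 16 the direction turned. A total of 27 receptor genes never changed direction, the exceptions being *Glrb*, *Grin2d*, *Gabra3* and *Gabbr2*. DESeq2 called 30 receptor genes and 46 partner genes and limma-voom 7 and 18, against 3 and 3. Over all genes these tests called 17.0% and 21.9%, against 1.95%. With library totals alone as the scaling, edgeR called 0 and 0, although 28 receptor genes had an unadjusted p under 0.05. Only 11 of all 14736 genes were called with that scaling, and 4029 had an unadjusted p under 0.05. Leaving out single animals gave 0 to 9 receptor genes and 0 to 8 partner genes called, with 21 to 30 receptor genes at an unadjusted p under 0.05. Over all genes the same fits called 0 to 629, with 2922 to 4414 at an unadjusted p under 0.05. The 9 receptor genes came without vehicle animal 2, beside 556 of all 14962 genes tested there. With vehicle animal 3 left out 3 receptor genes were called, beside 629 of all 14906 genes. limma-voom gave log2 fold changes of 0.22 for *Gabra3*, 0.091 for *Glrb* and 1.02 for *Grin2d*, and *Glrb* was at 0.0081 without a filter on low counts. With single animals left out, *Glrb* ranged from -0.17 to 0.22 and *Grin2d* from -0.34 to 0.74. Without vehicle animals 1 and 3 together, chosen after seeing the data, the median over receptor genes was -0.85, and *Gabbr2*, *Gabra3*, *Glrb* and *Grin2d* were at 0.50, 0.35, 0.21 and 0.90. The cause of these changes was not tested.

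With the animal number as a replicate block, edgeR called 0 receptor genes (23 at an unadjusted p under 0.05) and 0 partner genes. Only 9 of all 14736 genes were called in that fit, 3478 had an unadjusted p under 0.05, and *Grin2d* was at 0.20. Same-numbered animals did not all deviate together (correlations of -0.26, 0.24, 0.33 and 0.10), and animals of different numbers gave -0.39 to 0.35. These values are too few to tell whether the numbers pair the animals.

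With Spearman's rho 0 genes were nearest to a single glial list and 6 to a single neuron list, against 6 and 2. With the neuron lists as a kind and the glial lists as another, Spearman's rho gave 18 glia-linked, 11 neuron-linked and 2 undecided genes. Pearson's r gave 7, 22 and 2. With single animals left out, 0 to 6 genes were nearest to glial lists and 1 to 6 to neuron lists. The log2 ratio of *Grin2b* to *Grin2a* differed between the groups by -0.03, by 0.34 with a prior count of 0.5, and by -0.53 to 0.48 with single animals left out. Outside vehicle animals 1 and 3, *Grin1*, *Grin2a* and *Gabrb2* stayed at or under 2.47 CPM. A count of 0 allows up to 0.0911 to 0.181 CPM per library, and levels under this limit could not be told from 0.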

Other observations

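Vehicle animals 1 and 3, which held most of the neuron-linked receptor RNA, held receptors in different proportions. In that order, the level of *Gabbr2* was 22.5 and 300.5 CPM and that of *Grm2*, a presynaptic receptor, 0.679 and 26 CPM. Against this, *Grm5* was at 86.8 and 75.4 CPM, *Gabrg3* at 16.5 and 16.2 CPM, and *Grm4*, a receptor of striatal output neurons, at 13.2 and 14.6 CPM. *Slc17a7*, the glutamate carrier of cortical excitatory neurons, was at 33.7 and 499 CPM. A list of 8 striatal neuron genes, added after these values had been seen, summed to 1527 CPM in the first of them, 150.2 CPM in the other and 70.6 to 177 CPM in the other 6 animals. *Ppp1r1b* from that list reached 79.4 and 20.8 CPM there and at most 2.41 CPM elsewhere. *Gabra6* was counted only in vehicle animal 1, at 42 counts. The region from which each piece was cut is not given in the labels, and its part in these differences was not tested.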
